A study of Rattus norvegicus with 24 samples.

Results

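The proliferation genes described here are 37 listed genes of DNA replication and mitosis, of which 36 were found by their symbol among the 32883 genes of the count table, 14 for replication and 22 for mitosis. Ccnb2 was not analysed here. The list was made from what the genes do, not from their values, although earlier results of these data were known when it was drawn up. RNA sequencing had been run on thymus, spleen, liver and brain of Sprague-Dawley rats aged 7 months, in 24 libraries that form 8 groups of 3. In each tissue 3 libraries came from rats labelled SAM-exposed and 3 from rats labelled Sham-exposed. The series title calls the exposure PCB, whereas the treatment label says SAM. The labels give no dose, route, duration or sex, so both groups are described only by those words. Thymus and spleen were taken under animal numbers 1, 3 and 5 for SAM and 14, 15 and 17 for Sham. Liver has SAM 1, 2 and 3 and Sham 13, 14 and 15, and brain has SAM 1, 2 and 3 and Sham 13, 15 and 16. A library is named below by its group and number, and nothing in the labels says whether the same number in different tissues is the same rat. All libraries were made from total RNA with a stranded mRNA kit.

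A cell that divides copies its DNA and then parts the copies, and the genes for both steps are switched on in turn. Replication genes are driven by E2F factors at the G1 to S transition. They encode the MCM helicase that opens the double helix (Mcm2 to Mcm7), the sliding clamp Pcna, the enzymes that make deoxynucleotides (Rrm1, Rrm2, Tyms, Tk1), the cyclins Ccne1 and Ccne2 and the factor E2f1 itself. Mitosis genes peak later, in G2 and M, under B-Myb (Mybl2) and Foxm1, which act with the MuvB complex at promoter elements called CHR. In resting cells the DREAM complex keeps both sets silent, through E2F sites in replication genes and CHR elements in mitosis genes. The thymus of a young rodent is rich in dividing T cell precursors, the rodent spleen holds dividing erythroblasts and germinal centre B cells, and adult liver and brain divide little.

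Upstream sequences are shown so that the letters of the replication and mitosis groups can be seen apart. They are RefSeq sequences of the rat assembly GRCr8, the 250 bases before the annotated start, read 5′ to 3′ on the strand of the gene. Capitals mark any match, on either strand, to the CHR letters TTTGAA, to the E2F letters TTTCCCGC, TTTGGCGC, TTTCGCGC or TTTGCCGC, or to CCAAT. Adjoining or overlapping matches run together in 1 block of capitals. The mitosis genes shown are Mki67 (chr1:199952594-199952843, minus strand), Top2a (chr10:84473094-84473343, minus strand) and Cdk1 (chr20:19265043-19265292, plus strand). The replication genes shown are Mcm5 (chr19:13488563-13488812, plus strand), Mcm6 (chr13:42404353-42404602, minus strand) and Mcm3 (chr9:30733747-30733996, minus strand).
Mki67: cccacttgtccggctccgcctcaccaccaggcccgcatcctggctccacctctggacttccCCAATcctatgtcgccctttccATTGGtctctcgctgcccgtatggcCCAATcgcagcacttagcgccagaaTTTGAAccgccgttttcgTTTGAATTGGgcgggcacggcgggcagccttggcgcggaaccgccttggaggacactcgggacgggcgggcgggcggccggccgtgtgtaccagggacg
Top2a: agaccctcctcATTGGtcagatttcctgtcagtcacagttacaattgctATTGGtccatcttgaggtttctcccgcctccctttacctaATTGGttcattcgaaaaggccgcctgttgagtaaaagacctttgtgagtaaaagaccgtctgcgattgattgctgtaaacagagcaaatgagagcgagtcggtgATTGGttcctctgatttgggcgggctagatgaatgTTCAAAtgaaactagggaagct
Cdk1: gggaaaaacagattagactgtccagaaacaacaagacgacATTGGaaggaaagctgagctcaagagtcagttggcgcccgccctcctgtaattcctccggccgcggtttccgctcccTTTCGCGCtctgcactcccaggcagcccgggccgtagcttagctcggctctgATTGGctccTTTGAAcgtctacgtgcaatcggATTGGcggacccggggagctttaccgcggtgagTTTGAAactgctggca
Mcm5: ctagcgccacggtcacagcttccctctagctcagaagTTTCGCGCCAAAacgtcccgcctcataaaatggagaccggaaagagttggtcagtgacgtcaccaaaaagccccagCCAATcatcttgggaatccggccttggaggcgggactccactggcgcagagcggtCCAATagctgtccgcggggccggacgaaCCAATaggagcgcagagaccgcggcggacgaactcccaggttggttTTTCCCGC
Mcm6: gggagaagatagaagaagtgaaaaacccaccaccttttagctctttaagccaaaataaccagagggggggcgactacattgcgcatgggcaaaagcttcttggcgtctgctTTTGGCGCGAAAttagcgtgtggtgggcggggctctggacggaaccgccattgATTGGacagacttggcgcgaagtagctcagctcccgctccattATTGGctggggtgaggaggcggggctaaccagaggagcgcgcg
Mcm3: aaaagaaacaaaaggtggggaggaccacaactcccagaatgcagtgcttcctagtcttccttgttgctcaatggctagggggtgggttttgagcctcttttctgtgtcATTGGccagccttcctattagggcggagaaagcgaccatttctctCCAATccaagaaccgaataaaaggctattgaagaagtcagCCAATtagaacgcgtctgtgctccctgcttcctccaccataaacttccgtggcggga

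Mki67 held 2 CHR matches, Cdk1 2 and Top2a 1, and each of these 3 genes also held CCAAT. Mcm5 and Mcm6 held E2F matches and no CHR match. Mcm3 showed only CCAAT in capitals, since its E2F letters lay across and after the start. A promoter was found for 27 of the 36 genes (10 replication, 17 mitosis), in windows of 300 bases that run from 250 before to 50 after the start. CHR letters stood in 10 of 17 mitosis promoters (58.8%), in 1 of 10 replication promoters (10%, Mcm2) and in 18.3% of all 33469 promoters of the table. E2F letters stood in 6 of 10 replication promoters (60%), in 1 of 17 mitosis promoters (5.88%, Cdk1) and in 2.14% of all. CCAAT stood in 13 of 17 mitosis promoters (76.5%), in 6 of 10 replication promoters (60%) and in 37.5% of all. Among other mitosis genes, a separate list, 34 of 53 promoters held CHR (64.2%) and 1 held E2F letters. Among other replication genes 13 of 32 held E2F letters (40.6%) and 5 held CHR. In the 250 bases before the start alone, CHR stood in 7 of 17 mitosis promoters (41.2%) and in 16.2% of all. E2F letters stood there in 5 of 10 replication promoters (50%), in 18.8% of those of the other replication genes and in 1.73% of all. A match describes the letters in these windows and does not show that a factor binds there.

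The libraries held between 12851169 and 20124738 counted reads, and mitochondrial genes took 2.95% to 17.8% of them. Levels are given as CPM (a gene's read count relative to the total count of its library), scaled within each tissue by the TMM method, which corrects for a few genes taking much of a library. CPM does not correct for gene length, so levels are compared between libraries for the same gene and not between genes. Replicate pairs of all groups differed by more than sampling noise, with chi-square over degrees of freedom from 5.95 to 193. That replicates are separate rats is shown only by their numbers, so the p-values measure the spread between these samples, which may be technical. Marker lists fitted the tissue labels. The immature thymocyte score, the mean log2 CPM of the list, was 8.36 to 8.56 in thymus and at most 3.92 elsewhere, and the B cell score was 8.18 to 8.5 in spleen and at most 4.68 elsewhere. Hepatocyte genes scored 12.20 to 12.94 in liver and at most 0.48 elsewhere, and oligodendrocyte precursor genes 5.70 to 5.81 in brain and at most 0.38 elsewhere. The liver library SAM 1 had the highest mitochondrial share (17.8%), and the brain libraries SAM 1 and SAM 2 stood apart from the other 4 brain libraries, as described with the brain values.

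Of the 36 genes 35 had their highest Sham average in thymus, although Mcm3 was nearly as high in spleen. In Sham thymus, mean levels ran from 39.8 to 394 CPM for the replication genes and from 41.3 to 949 CPM for the mitosis genes. Sham spleen had 4.21 to 195 CPM for replication and 5.44 to 64.0 CPM for mitosis genes. In Sham liver 9 of 14 replication genes and 6 of 22 mitosis genes averaged at least 1 CPM, and the highest mitosis gene average was 2.28 CPM. In Sham brain all 14 replication genes but only 14 of 22 mitosis genes averaged at least 1 CPM. E2f1 was highest in brain: it averaged 104 CPM in Sham brain, 43.8 CPM in thymus, 15.3 CPM in spleen and 0.694 CPM in liver. These tissue averages are scaled within each tissue, so only large differences between tissues can be read from them.

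**Figure D1:**
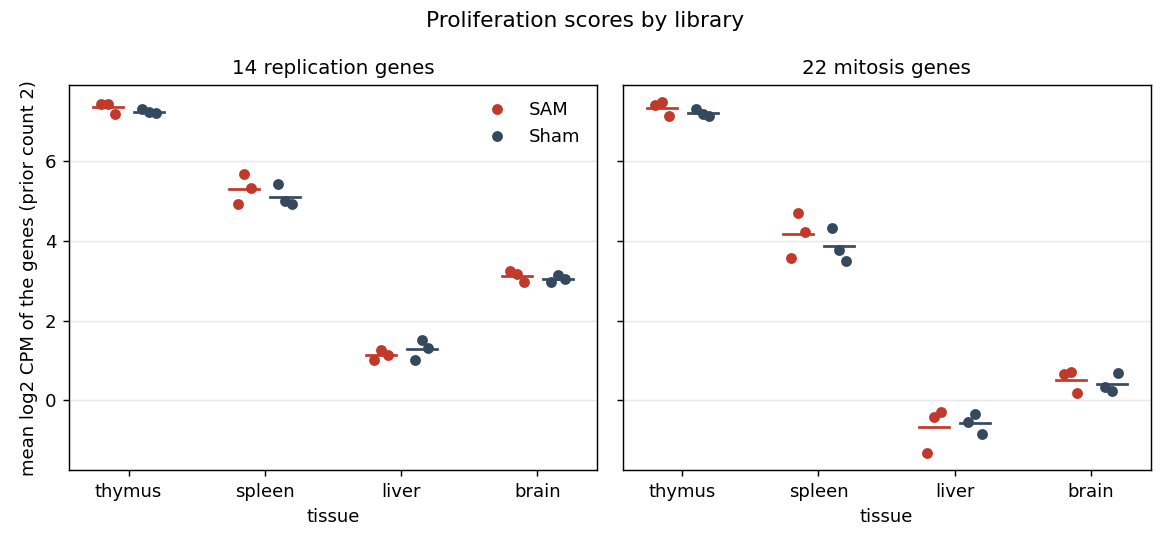
Mean log2 CPM of the 14 replication genes (left) and of the 22 mitosis genes (right) in each of the 24 libraries, by tissue. Points are libraries, bars are group means, red is SAM and dark blue is Sham; thymus lies highest, liver lowest, and SAM and Sham libraries overlap in every tissue.

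The comparison of SAM with Sham thymus asks whether the exposure went with a change in genes of dividing cells where division is most frequent. None of the 36 genes passed the test. Every estimate was above 0 but small: the median log2 fold change was 0.13 for replication and 0.14 for mitosis genes, against -0.00 over all genes, and the range was 0.01 (Tyms) to 0.21 (Plk1). In every gene the highest library was SAM 1 or SAM 3, and SAM 5 lay among the Sham libraries or below them. More dividing cells and more of these RNAs per cell cannot be told apart in whole tissue.

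Among the replication genes, Pcna was at 457, 458 and 373 CPM in SAM 1, 3 and 5 and at 416, 399 and 368 CPM in Sham 14, 15 and 17. Mcm2, a subunit of the helicase, was at 294, 306 and 261 CPM in SAM and 278, 246 and 266 CPM in Sham. In both genes SAM 1 and SAM 3 were highest, and SAM 5 lay within the Sham range. Mcm5 was at 266, 276 and 238 CPM against 254, 227 and 225 CPM, and Mcm7 at 407, 412 and 352 CPM against 365, 358 and 348 CPM. E2f1 was at 52.0, 50 and 45.1 CPM in SAM and 42.3, 43.0 and 46.2 CPM in Sham. These 3 genes again had SAM 1 and SAM 3 above every Sham library and SAM 5 inside their range. E2f1 had the lowest unadjusted p of the replication genes, 0.0597 in edgeR's quasi-likelihood test, with a log2 fold change of 0.17 ± 0.08 (SE).

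The mitosis genes repeated this order of libraries. Mki67, the gene of the proliferation marker Ki-67, was at 1046, 1098 and 840 CPM in SAM and at 1013, 881 and 813 CPM in Sham. Top2a, the topoisomerase that untangles replicated DNA, was at 1141, 1133 and 888 CPM against 1018, 943 and 887 CPM. Sham 14 was the highest Sham library and SAM 5 the lowest SAM library in both genes, so the groups overlapped. Cdk1, the kinase that starts mitosis, was at 124, 130 and 98.4 CPM in SAM and 120, 109 and 102 CPM in Sham. Its partner cyclin B1, Ccnb1, was at 149, 148 and 115 CPM and at 134, 124 and 122 CPM. For both genes SAM 5 was the lowest of all 6 thymus libraries.

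Plk1, a kinase of mitotic entry and spindle assembly, was at 123, 139 and 109 CPM in SAM against 111, 108 and 104 CPM in Sham. Its log2 fold change of 0.21 ± 0.09 (SE) was the largest of the 36, with a 95% interval from -0.00 to 0.41. Foxm1, a transcription factor of the G2 genes, was at 129, 136 and 114 CPM against 116, 112 and 118 CPM. Mybl2, which encodes B-Myb, was at 105, 117 and 88.8 CPM against 96.3, 88.7 and 89.6 CPM. Survivin, Birc5, was at 68.0, 73.2 and 59.1 CPM against 64.1, 59.6 and 58.4 CPM, and the centromeric histone Cenpa at 48.4, 50.2 and 39.0 CPM against 39.1, 42.5 and 42.2 CPM. In each of these 5 genes SAM 1 and SAM 3 were above all Sham libraries and SAM 5 was not. The other 22 genes had log2 fold changes between 0.01 and 0.17.

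Those 22 can be taken by role. The helicase subunits Mcm3, Mcm4 and Mcm6 had log2 fold changes of 0.11, 0.07 and 0.08 in thymus. The nucleotide enzymes Rrm1, Rrm2 and Tk1 had 0.10, 0.13 and 0.16, Tyms had 0.01, and the cyclins Ccne1 and Ccne2 had 0.16 and 0.06. Among mitosis genes, cyclin A2 (Ccna2) had 0.08, and the spindle checkpoint kinases Bub1 and Bub1b had 0.10 and 0.17. Aurka and Aurkb, the Aurora kinases, had 0.14 and 0.13. The kinetochore genes Cenpe and Cenpf had 0.12 and 0.14, and the kinesins Kif11, Kif20a and Kif23 had 0.11, 0.11 and 0.09. Tpx2 had 0.15, and Ube2c and Cdc20, which act with the anaphase-promoting complex, had 0.14 and 0.15. The 95% interval of each of these 22 genes included 0.

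By edgeR's quasi-likelihood test with Benjamini-Hochberg adjustment over 15036 genes, 0 of the 36 genes passed 0.05, and 0 had an unadjusted p under 0.05. The background was 0 genes called (0%), with 922 genes at an unadjusted p under 0.05. DESeq2 called 100 genes in thymus (0.722%) and none of the 36. The adjusted p of the 36 ran from 0.812 to 0.994, and the widest 95% intervals reached from -0.21 to 0.46. Estimates were above 0 in 36 of 36 genes, against 49.5% of all genes tested. The 36 estimates come from the same 6 libraries and move together, so they are not separate observations of the exposure. No gene had all SAM libraries above all Sham libraries, which 4.13% of all genes showed, nor all below, which 7.46% showed.

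**Figure D2:**
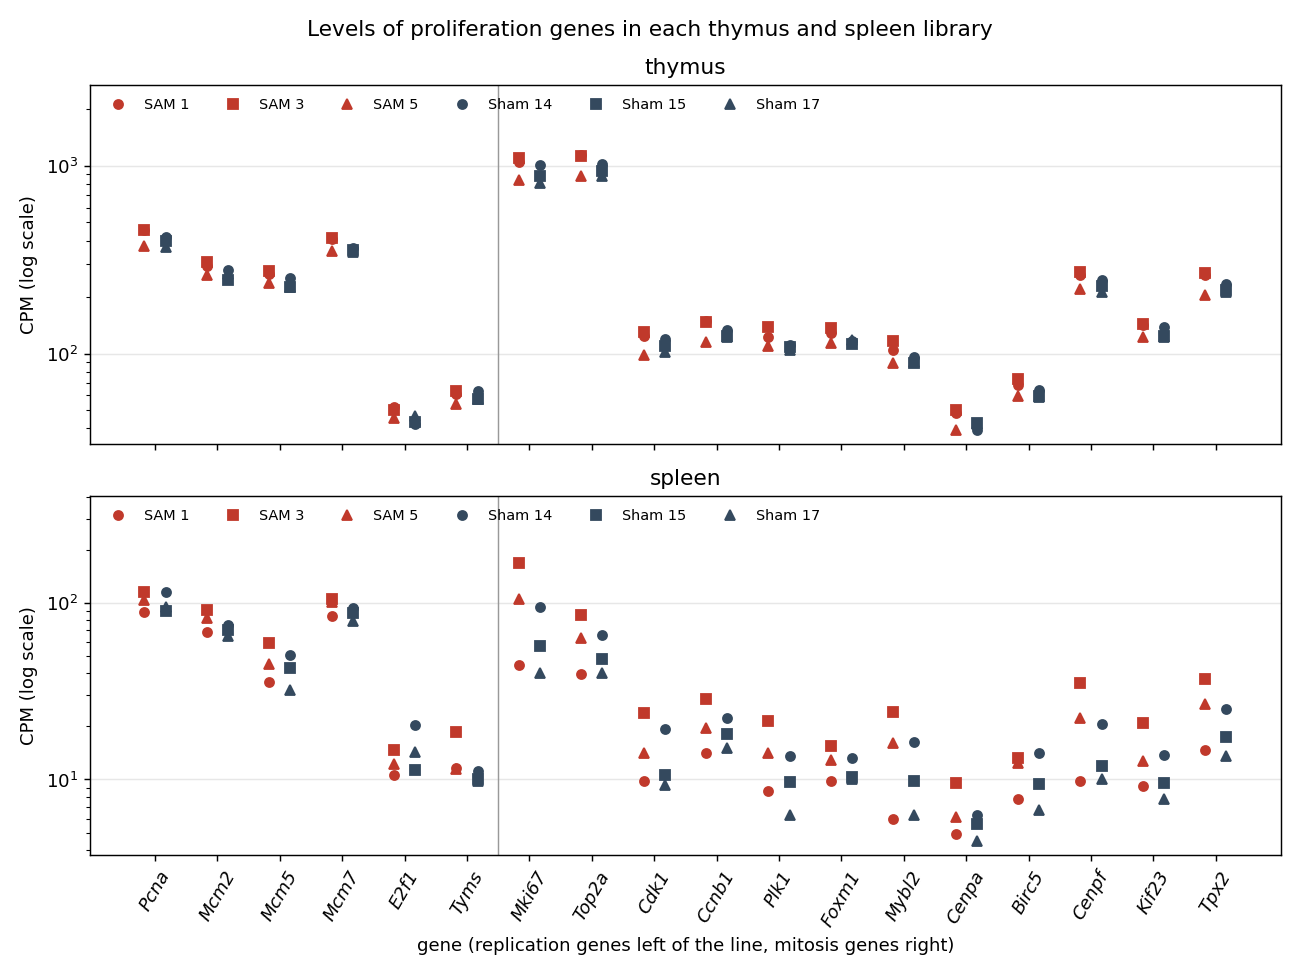
CPM (log axis) of 6 replication and 12 mitosis genes in the 6 thymus libraries (top) and the 6 spleen libraries (bottom). Each point is 1 library, red for SAM and dark blue for Sham, with the animal number in the legend; in thymus SAM 1 or SAM 3 lies at the top of every gene, in spleen SAM 3 does for most.

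Leaving out SAM 3 moved the thymus medians to 0.08 for replication and 0.07 for mitosis genes, and leaving out SAM 5 moved them to 0.20 and 0.23. With SAM 1 left out 34 of the 36 estimates stayed above 0. Summed over the 22 mitosis genes, levels were 5330, 5479 and 4277 CPM in SAM 1, 3 and 5 and 4955, 4519 and 4284 CPM in Sham 14, 15 and 17. The 14 replication genes summed to 3163, 3202 and 2665 CPM against 2909, 2766 and 2687 CPM. The highest library exceeded the lowest by 1.16 to 1.41 times for any gene, so the whole range that thymus showed was narrow.

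Other genes of the cell cycle lay close to these. Of 35 other replication genes 33 had estimates above 0 (median 0.10), and of 57 other mitosis genes 53 did (median 0.11), none passing the test. The lowest p-values among them belonged to E2f8, a repressor of E2F genes, at 0.23, and to the mitotic kinesin Kif15, at 0.27 on the log2 scale. The 23 G1 cyclins, CDKs and RB or DREAM genes had a median of 0.03, with 15 above 0. Among 7 CDK inhibitors 4 were below 0, with Cdkn1a, which encodes p21, at -0.31 ± 0.15 (SE), Cdkn2a at -0.57 ± 0.28 and Cdkn1c at -0.61 ± 0.31. Among 17 p53 target genes 12 were below 0 (median -0.03), Perp at -0.83 ± 0.18 and Bax at 0.15 ± 0.06. None of these lists had a member that passed the test.

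Markers of the cells in thymus moved unequally beside these values. The 14 thymic epithelium genes, all detected, scored 5.0, 5.42 and 5.57 in SAM and 5.71, 5.83 and 5.75 in Sham, without overlap, and 13 of 14 estimates were below 0 with a median of -0.42. Krt5, a keratin of medullary epithelium, was at 310, 366 and 306 CPM against 620, 620 and 578 CPM (adjusted p = 0.0877). The 15 immature thymocyte genes, all detected, scored 8.56, 8.43 and 8.47 in SAM and 8.51, 8.36 and 8.45 in Sham, and 12 of 15 estimates were above 0. Adipocyte genes varied more: the 10 genes, 1 of them at 0 in each group, summed to 915, 219 and 327 CPM in SAM and 267, 1394 and 106 CPM in Sham. SAM 1 and SAM 3, the 2 highest libraries for the proliferation genes, stood at opposite ends of the SAM range for adipocyte genes. The part of these cells in the proliferation values was not tested.

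In spleen the same comparison also gave no gene past the test, and the libraries differed far more. Estimates were above 0 for 35 of 36 genes, with a median log2 fold change of 0.16 for replication and 0.32 for mitosis genes, against 0.00 over all genes. They ran from -0.29 for E2f1 to 0.73 for Mki67. The library SAM 3 was highest for 32 of 36 genes, while Sham 17 was lowest for 19 and SAM 1 for 12. The lowest libraries thus came from both groups.

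Mki67 in spleen was at 44.3, 168 and 106 CPM in SAM 1, 3 and 5 and at 95, 57.0 and 40.1 CPM in Sham 14, 15 and 17. Its highest library exceeded its lowest by 4.2 times, and the lowest SAM and the lowest Sham library differed by little, at 44.3 and 40.1 CPM. Cenpf, a kinetochore protein, was at 9.77, 35.0 and 22.4 CPM against 20.6, 12 and 10.1 CPM. Plk1 was at 8.57, 21.4 and 14.1 CPM against 13.6, 9.67 and 6.31 CPM. SAM 3 was the highest and SAM 1 lay beneath Sham 15 in all 3 genes.

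Kif23, a kinesin of cytokinesis, was at 9.14, 21.0 and 12.8 CPM in SAM and 13.7, 9.57 and 7.72 CPM in Sham. Tpx2, a spindle assembly factor, was at 14.7, 36.9 and 26.8 CPM against 25.2, 17.4 and 13.6 CPM. Top2a was at 39.8, 86.0 and 63.5 CPM against 65.6, 48.1 and 40.2 CPM. In these 3 genes Sham 14 was above SAM 1, and SAM 3 was above every other library. Cdk1 was at 9.83, 23.8 and 14.1 CPM against 19.3, 10.6 and 9.36 CPM, and Ccnb1 at 14.1, 28.7 and 19.6 CPM against 22.3, 18.0 and 15.1 CPM. For Cdk1 and Ccnb1 the second highest library of the 6 was Sham 14.

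Replication genes varied less than mitosis genes between spleen libraries. The median ratio of highest to lowest library was 1.64 for replication and 2.36 for mitosis genes, and in thymus 1.23 and 1.30. Pcna was at 89.5, 115 and 104 CPM in SAM and 116, 89.7 and 95.3 CPM in Sham. Mcm2 was at 68.1, 91.8 and 82.3 CPM against 74.9, 70.6 and 65.2 CPM, and Mcm7 at 84.4, 106 and 101 CPM against 94.2, 87.7 and 79.3 CPM. Pcna peaked in Sham 14, Mcm2 and Mcm7 in SAM 3, and the groups overlapped in all 3. The cyclins Ccne1 and Ccne2 were the widest among the replication genes, Ccne1 with 4.40, 18.4 and 9.94 CPM against 11, 5.51 and 4.23 CPM.

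None of the remaining spleen genes passed the test, and they are given here by role. Log2 fold changes were 0.03 to 0.15 for the helicase subunits Mcm3, Mcm4, Mcm5 and Mcm6. They were 0.17, 0.28 and 0.47 for the nucleotide enzymes Rrm1, Rrm2 and Tk1, and 0.66 and 0.62 for the cyclins Ccne1 and Ccne2. Among mitosis genes Ccna2 had 0.42, Mybl2 0.50 and Foxm1 0.17. The checkpoint kinases Bub1 and Bub1b both had 0.25, while the Aurora kinases Aurka and Aurkb had 0.15 and 0.06. The kinesins Kif11 and Kif20a had 0.33 and 0.38, Ube2c had 0.44 and Cdc20 had 0.31. Cenpa, Cenpe and Birc5, which act at the centromere, had 0.34, 0.17 and 0.14. The 95% interval of each included 0. That for Ccne1 ran from -0.54 to 1.86, and that for Aurkb from -0.27 to 0.40.

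Tyms, the thymidylate synthase that makes dTMP, was the only one of the 36 whose spleen groups did not overlap. It was at 11.6, 18.5 and 11.4 CPM in SAM and 11.2, 10.1 and 9.80 CPM in Sham. The gap between the groups, from 11.2 to 11.4 CPM, was narrow, and the log2 fold change of 0.41 ± 0.20 (SE) had an adjusted p of 0.967. Without SAM 3 its log2 fold change was 0.14. E2f1 ran the other way, at 10.6, 14.6 and 12.2 CPM in SAM and 20.4, 11.3 and 14.3 CPM in Sham. Its estimate of -0.29 ± 0.22 (SE) rested on Sham 14, without which it was -0.03.

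By edgeR's quasi-likelihood test over 14530 spleen genes, 0 of the 36 genes passed the adjusted threshold and 0 had an unadjusted p under 0.05. The background was 0 genes called (0%), with 597 at an unadjusted p under 0.05, and DESeq2 called 7 genes (0.0482%) and none of the 36. Their adjusted p was 0.967 to 0.991, and the 95% intervals reached from -0.81 to 1.86. Estimates above 0 made up 50.8% of all spleen genes. Complete separation with SAM above was seen in 1 of 36 genes (Tyms) against a background of 4.74%, and separation with SAM below in 0 against 4.40%. Without SAM 3, 23 of 36 estimates were above 0, and the medians were 0.04 for replication and 0.01 for mitosis genes.

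**Figure D3:**
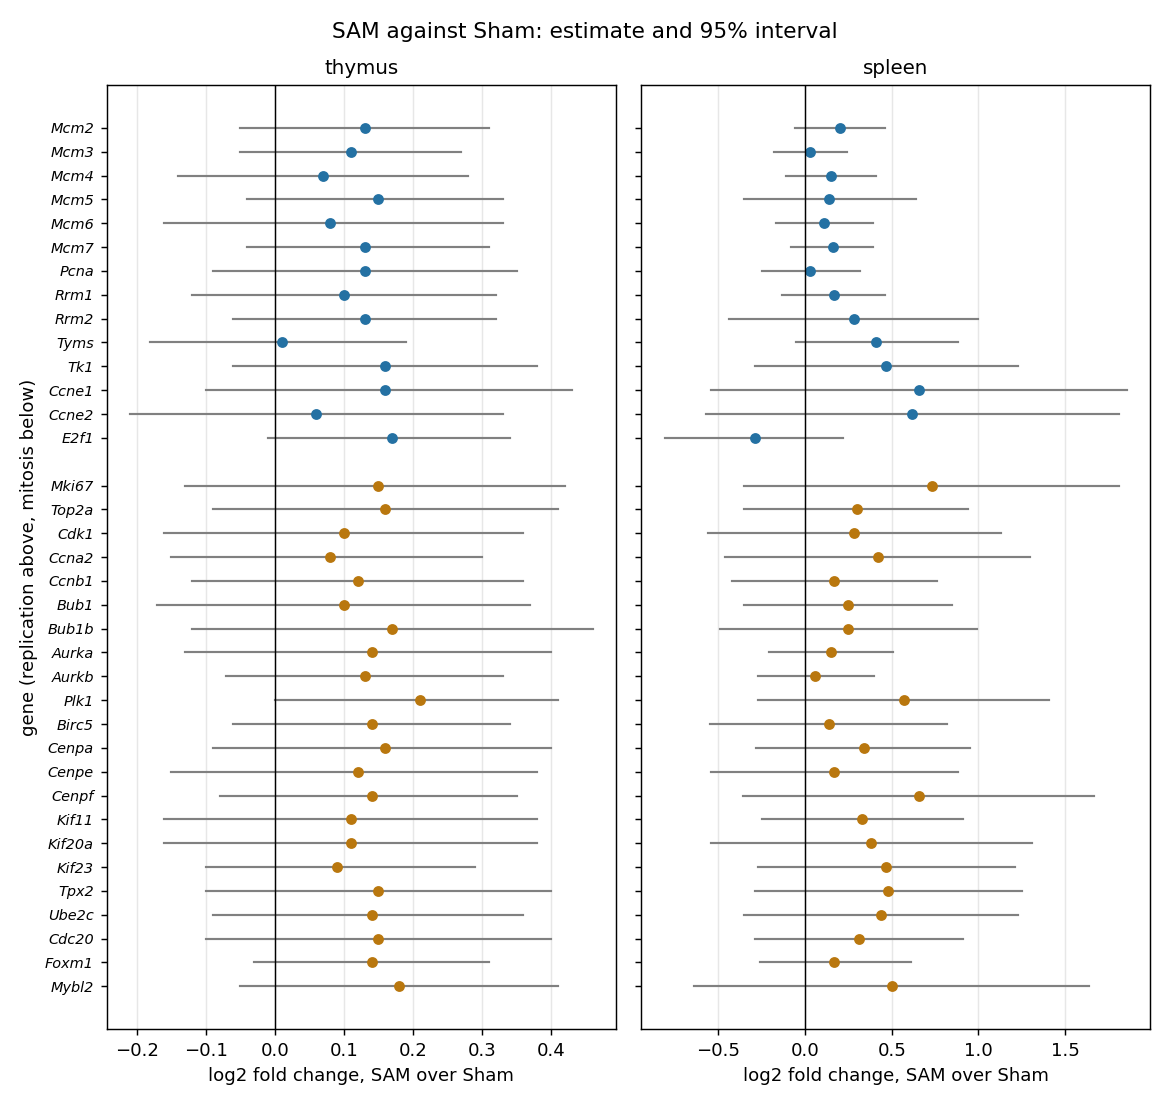
Log2 fold change of SAM over Sham with its 95% interval for each of the 36 genes in thymus (left) and spleen (right), with replication genes in blue above and mitosis genes in orange below. The 2 panels have different x axes; all thymus estimates and all spleen estimates but E2f1 lie right of 0, and every interval in both panels includes 0.

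Erythroblast genes followed the same spleen libraries. Of 15 erythroblast genes 14 were found. Gata1, which encodes the erythroid master factor, had 0 counts in every spleen library, where a count of 0 allows up to 3 counts. Gata1 stays in the score, and since how reads were counted is not given, its 0 does not show that the RNA was absent. The erythroblast score was 3.37, 5.98 and 5.23 in SAM 1, 3 and 5 and 4.83, 4.0 and 3.02 in Sham 14, 15 and 17. The mitosis score was 3.56, 4.71 and 4.23 in SAM and 4.32, 3.77 and 3.50 in Sham, and the replication score 4.92, 5.68 and 5.34 against 5.42, 5.0 and 4.92. SAM 3 was highest in all 3 scores, and SAM 1 and Sham 17 were the 2 lowest in all 3. Summed erythroblast levels ran from 795 to 2335 CPM in SAM and from 592 to 1338 CPM in Sham. All 13 erythroblast genes tested had estimates above 0 with a median of 1.27, and none passed the test. The anion exchanger of red cells, Slc4a1, had 1.42 ± 0.64 (SE) and the transferrin receptor Tfrc 0.71 ± 0.35.

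Germinal centre B cell genes did not follow that order. Their score was 3.71, 4.0 and 3.21 in SAM and 4.34, 3.87 and 3.18 in Sham, and 0 of 10 estimates were above 0. SAM 5, the second highest library for erythroblast genes, was among the 2 lowest for germinal centre genes. The plasma cell score was 4.37 to 4.89 in SAM and 4.75 to 5.15 in Sham, with 0 of 7 estimates above 0, and the B cell score was 8.21 to 8.46 and 8.18 to 8.5. Granulocyte precursor genes scored 0.83 to 1.02 in SAM and 0.26 to 1.59 in Sham. The score of the immature thymocyte list in spleen was 3.73 to 3.92 in SAM and 3.50 to 3.60 in Sham, without overlap. Of its 13 genes tested in spleen 11 had estimates above 0 (median 0.27), and none passed the test. The lowest p-values among them belonged to Cd4 at 0.30, Tcf7 at 0.38 and Themis at 0.43. Rag1 and Dntt were higher in Sham thymus than in Sham spleen by 13.59 and 10.52 on the log2 scale. The score in spleen therefore does not show that immature thymocytes were present there. How much of the proliferation values each cell type made up was not tested.

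**Figure D4:**
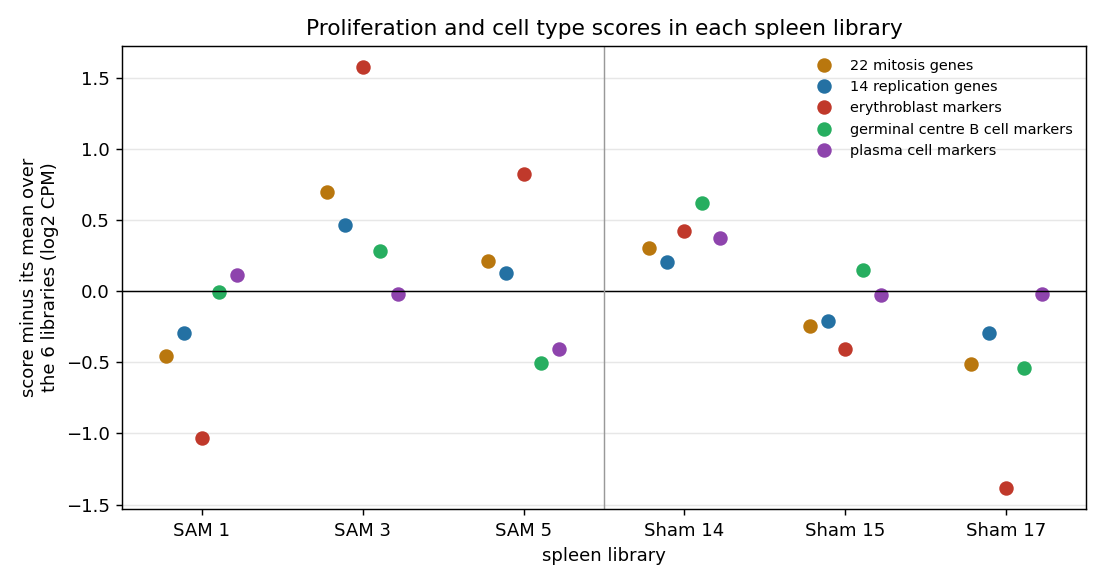
Scores (mean log2 CPM) of the 22 mitosis genes, the 14 replication genes and 3 marker lists in each spleen library, minus the mean of that score over the 6 libraries. The mitosis, replication and erythroblast points are all above 0 in SAM 3, SAM 5 and Sham 14 and all below 0 in SAM 1, Sham 15 and Sham 17.

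Other cell cycle genes in spleen had the same lean. Of 35 other replication genes 32 were above 0 (median 0.12), with the DNA polymerase subunit Pole at 0.32 ± 0.10 (SE) and the kinase Cdc7 at 0.38 ± 0.14. Of 57 other mitosis genes 54 were above 0 (median 0.35), among them the securin Pttg1 at 0.68 ± 0.36. None passed the test. Among the 23 G1 cyclins, CDKs and RB or DREAM genes 17 were above 0 (median 0.03), while Myc was at -0.28 ± 0.06 with an adjusted p of 0.967. CDK inhibitors had a median of 0.05 and p53 targets of -0.03.

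Thymus and spleen were set against each other in 1 fit, which tested whether the SAM effect differed between them. None of the 36 genes passed, and none had an unadjusted p under 0.05. Of the 15781 genes 0 passed (0%), 649 with an unadjusted p under 0.05. The difference, thymus effect minus spleen effect, was below 0 for 30 of 36 genes, with a median of -0.15. With both libraries numbered 3 left out, 14 of 36 were below 0 and the median was 0.04. The median was -0.05 without number 5, -0.06 without 17, -0.31 without 14 and -0.41 without 1. The lowest unadjusted p-values by edgeR's quasi-likelihood test belonged to E2f1, at 0.0935 with a difference of 0.46 ± 0.25 (SE), and Tyms, at 0.0952 with -0.41 ± 0.22. For Mki67 the difference was -0.58 with a 95% interval from -1.78 to 0.61, so neither an equal effect nor a spleen effect well above that in thymus lay outside the interval.

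Between the unexposed tissues the contrast was large. In Sham rats 35 of 36 genes were higher in thymus than in spleen at an adjusted p under 0.05 by edgeR's quasi-likelihood test, against a background of 32.5% of 15336 genes called higher in thymus. The median log2 difference was 2.88, with 1.85 for replication and 3.22 for mitosis genes, against -0.01 over all genes. Scaling by library totals alone moved that median of all genes to 0.17. All 35 genes had every Sham thymus library above every Sham spleen library. The share of all genes with such separation was not worked out, and 66.6% of all genes passed the test in either direction.

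The 4 largest differences were those of Top2a, Bub1, Cenpf and Mki67. Top2a was higher in thymus by 4.02 ± 0.19 (SE) on the log2 scale, 16.2-fold, and the checkpoint kinase Bub1 by 3.91 ± 0.20, 15-fold. Cenpf followed with 3.83 ± 0.25 and Mki67 with 3.63 ± 0.30. The smallest of the 22 mitosis genes was Aurka, the spindle pole kinase, with 1.81 ± 0.14, and Aurkb, the kinase of the chromosomal passenger complex, had 2.29 ± 0.11. Cdk1 had 2.88 ± 0.25 and Ccnb1 2.59 ± 0.14. So the mitosis genes spanned 1.81 to 4.02, and the lowest of them exceeded 6 of the 14 replication genes.

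Among the replication genes, the ribonucleotide reductase subunit Rrm2 had the largest difference, 3.22 ± 0.22 (SE), while the other subunit, Rrm1, had 1.72 ± 0.09. At the protein level Rrm2 follows S phase and Rrm1 is more stable through the cycle, whereas the values here are of RNA. Ccne2 had 3.05 ± 0.29 and Ccne1 2.42 ± 0.31. The helicase subunits Mcm2, Mcm4, Mcm6 and Mcm7 were alike, at 1.72 ± 0.08, 1.86 ± 0.10, 1.86 ± 0.10 and 1.85 ± 0.09. Mcm5 had 2.30 ± 0.16. E2f1 had the smallest difference of the genes that passed, 1.33 ± 0.20.

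Mcm3, a subunit of the same helicase, was the only gene that did not pass. It was at 215, 201 and 204 CPM in Sham thymus and 179, 204 and 203 CPM in Sham spleen, each scaled within its tissue. Fitted together, its log2 difference was -0.10 ± 0.08 (SE) with an adjusted p of 0.259, and scaling by library totals alone turned it to 0.08. The 95% interval from -0.28 to 0.07 lay far under the value of any other helicase subunit. In spleen Mcm3 was also the replication gene that varied least between libraries, by 1.24 times. In liver and brain it was low, at 1.08 CPM and 1.47 CPM on average in Sham. Reads of Mcm3 and of any overlapping or near-identical gene could not be told apart, since how such reads were counted is not given in the sources used here.

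**Figure D5:**
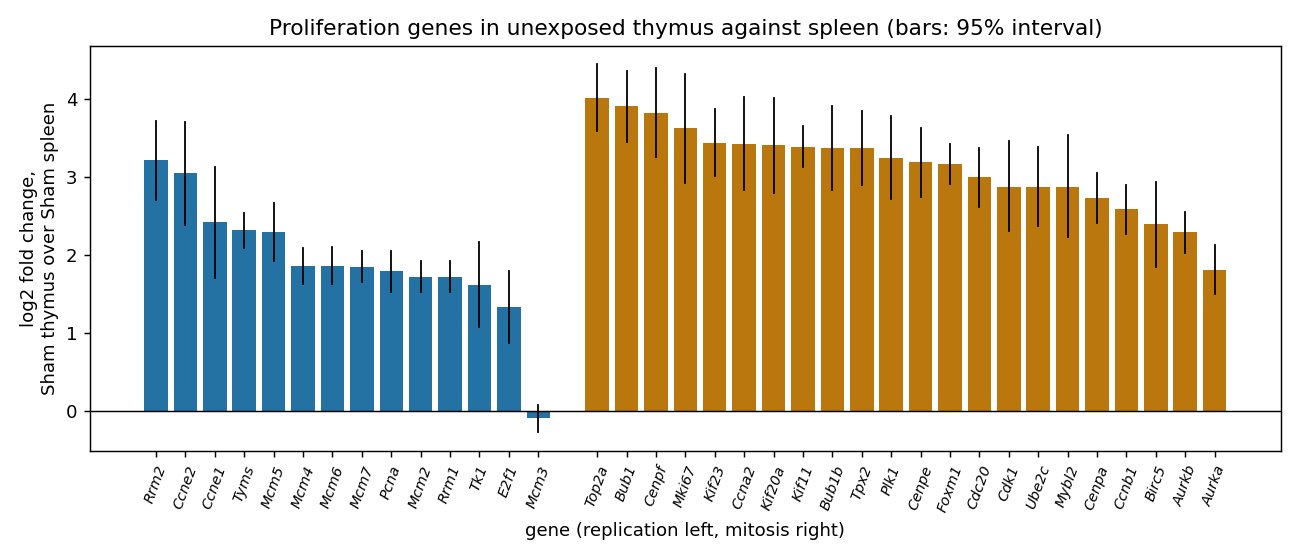
Log2 fold change of Sham thymus over Sham spleen for the 14 replication genes (blue, left) and the 22 mitosis genes (orange, right), each group in descending order, with 95% intervals as lines. Mcm3 is the only bar near 0, at -0.10, and the mitosis genes run from 1.81 (Aurka) to 4.02 (Top2a).

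The lists of related genes took the same side. Counts here are of genes that passed the test. Of all 15336 genes 66.6% passed in either direction, and 32.5% passed as higher in thymus. All 35 other replication genes were higher in Sham thymus (median 1.73), led by p-value by Cdc45, a helicase partner, at 3.06 ± 0.10 (SE). Of 57 other mitosis genes 56 were higher (median 2.95), with Kif4a, a chromosome kinesin, at 3.25 ± 0.09. The phosphatase gene Cdc25b alone was lower, at -1.36 ± 0.22, named here after its value was seen. Regulators of the cycle were mixed, and of 23 G1 cyclins, CDKs and RB or DREAM genes 13 were higher and 4 lower. Passing as lower was less common in this list than among all genes. Cyclin D3, Ccnd3, was higher by 3.33 ± 0.15, while Myc was lower at -1.16 ± 0.07. The other 3 lower genes were Ccnd1 at -0.96, Rbl2 at -0.65 and Lin37 at -0.34, also named after their values were seen. Among 7 CDK inhibitors 6 were higher, with Cdkn1b, which encodes p27, at 1.29 ± 0.08.

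In brain no gene of the 36 passed the test. Among the 32 that could be tested, E2f1, Mcm6, Mcm7 and Pcna had SAM 1 and SAM 2 apart from the other libraries. Others, such as Mki67 and Plk1, did not. By edgeR's quasi-likelihood test 0 of 32 passed the adjusted threshold, against 0 of 15126 genes (0%), of which 3108 had an unadjusted p under 0.05. Of the 32, 5 had an unadjusted p under 0.05: Mcm6 at 0.70 ± 0.25 (SE), Tyms at 0.59 ± 0.18, Rrm2 at -0.81 ± 0.26, Ccnb1 at -0.67 ± 0.27 and Tpx2 at -0.98 ± 0.28. Their adjusted p lay between 0.221 and 0.239. Estimates were above 0 for 22 of 32 genes, against 51.4% of all genes. Every SAM library was above every Sham library in 2 of 32 genes (Mcm3 and Tyms), against 11.4% of all genes, and below in 3 (Rrm2, Ccnb1 and Tpx2), against 12.4%.

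E2f1 separated the brain libraries most plainly. It was at 33.3, 35.5 and 110 CPM in SAM 1, 2 and 3 and at 103, 118 and 91.1 CPM in Sham 13, 15 and 16. SAM 1 and SAM 2 were beneath every other library, and SAM 3 lay within the Sham range. Mcm6 was at 11, 11 and 5.80 CPM in SAM and 5.46, 5.99 and 5.70 CPM in Sham, and Mcm7 at 35.2, 26.9 and 15.3 CPM against 18.4, 16.4 and 18.8 CPM. Pcna was at 44.6, 42.9 and 34.2 CPM against 34.8, 33.5 and 37.8 CPM. In these 3 genes SAM 1 and SAM 2 were highest and SAM 3 was like Sham.

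Tyms in brain was at 8.67, 8.47 and 5.96 CPM in SAM and 5.29, 4.96 and 5.09 CPM in Sham, with all SAM libraries above. Tpx2 was at 4.2, 6.02 and 8.29 CPM in SAM and 12.4, 14.5 and 9.51 CPM in Sham, with all SAM libraries below. Ccnb1 was at 1.75, 2.03 and 3.14 CPM against 3.40, 3.21 and 4.21 CPM. For Tyms, Tpx2 and Ccnb1, SAM 3 was the SAM library nearest to Sham. Mcm2 was at 7.64, 6.68 and 6.28 CPM in SAM and 5.13, 6.54 and 5.81 CPM in Sham.

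Rrm2, named after its p was seen, was at 0.709, 0.835 and 0.644 CPM in SAM and 1.39, 1.39 and 1.08 CPM in Sham, which is 8 to 25 counts in a library. Mki67 was at 1.53, 1.13 and 0.644 CPM in SAM and 0.947, 0.242 and 1.49 CPM in Sham, and Top2a at 1.36, 2.33 and 0.725 CPM against 0.724, 1.21 and 1.85 CPM. Cdk1 was too low to test, at 0.223 to 1.01 CPM. SAM and Sham overlapped in Mki67, Top2a and Cdk1. Kif23 was at 4.31, 4.11 and 5.64 CPM against 5.01, 4.60 and 6.17 CPM, and Foxm1 at 3.71, 3.70 and 3.87 CPM against 2.84, 3.87 and 4.27 CPM. Plk1 was at 2.13, 2.03 and 2.34 CPM against 1.89, 2.06 and 2.42 CPM, and Birc5 at 1.58, 1.43 and 1.45 CPM against 1.5, 1.63 and 1.49 CPM. The groups overlapped in these 4 genes as well. Mybl2 was at 1.69, 1.49 and 1.29 CPM against 0.947, 1.03 and 1.75 CPM, Cenpf at 1.53, 1.07 and 0.322 CPM against 0.613, 0.726 and 1.13 CPM, and Mcm5 at 1.75, 1.37 and 1.21 CPM against 0.892, 1.51 and 1.34 CPM. Cenpa, at 0.0805 to 0.477 CPM, was not tested.

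Without SAM 3, 7 genes passed in brain, when 5896 genes in all did (38.1% of 15493): Mcm6 at 0.93, Mcm7 at 0.79, Tyms at 0.73, Pcna at 0.29, Ccnb1 at -0.95, Tpx2 at -1.26 and E2f1 at -1.61. The 7 genes are to be read against that 38.1%. With SAM 1 and SAM 2 both left out, a choice made after their values were seen, SAM 3 differed from Sham by 0.03 for Mcm6, 0.23 for Tyms, 0.09 for E2f1 and -0.53 for Tpx2. These are values of 1 library, whose spread had to be taken from the 3 Sham libraries, and they carry no test here. DESeq2 called 499 genes in brain (3.50%), and of the 32 only Tpx2, at -0.99 with an adjusted p of 0.0462. The neural progenitor score was 4.27, 4.08 and 2.18 in SAM 1, 2 and 3 and 1.69, 1.94 and 2.08 in Sham 13, 15 and 16. Of 7 neural progenitor genes tested 5 had estimates above 0 and 2 below, from -0.59 to 2.87 (Dlx2), and none passed the test. The oligodendrocyte precursor score was 5.70 to 5.78 in SAM and 5.70 to 5.81 in Sham. The part of either cell type in the values of the 36 genes was not tested.

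Other cell cycle genes in brain went both ways, with none past the test. Of 32 other replication genes tested 22 were above 0 (median 0.16), with Gins2 at 1.12 ± 0.33 (SE) and Fen1 at -0.38 ± 0.10. Of 45 other mitosis genes 21 were above 0 (median -0.06). Among 6 CDK inhibitors 5 were above 0, Cdkn1a at 1.18 ± 0.33, and Myc was at 1.23 ± 0.25.

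In liver the genes were too low to show much. Only 22 of 36 could be tested, 11 of each kind, and 0 passed by edgeR's quasi-likelihood test, with 0 at an unadjusted p under 0.05. The background was 0 of 12130 genes (0%), with 327 at an unadjusted p under 0.05. Estimates were above 0 in 10 of 22 genes, against 52.2% of all genes, with medians of -0.23 for replication and -0.02 for mitosis genes. Mki67 was at 0.802, 1.82 and 2.27 CPM in SAM 1, 2 and 3 and 1.97, 2.41 and 1.03 CPM in Sham 13, 14 and 15. Top2a was at 0.0891, 1.37 and 0.736 CPM against 1.33, 1.21 and 0.242 CPM, which is 1 to 27 counts in a library. SAM 1, which also had the highest mitochondrial share, had the lowest mitosis score of the 6, -1.32.

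Replication genes in liver varied to different degrees. Pcna was at 13.2, 14.4 and 15 CPM in SAM and 12.1, 14.3 and 12.8 CPM in Sham, and Mcm7 at 11.6, 11.5 and 11.3 CPM against 9.64, 10.8 and 11.7 CPM. Mcm2 was at 4.99, 5.36 and 7.23 CPM against 4.63, 5.66 and 5.62 CPM. The groups overlapped in all 3 genes. Mcm5 was at 0.356, 0.911 and 0.803 CPM in SAM and 0.508, 1.62 and 0.846 CPM in Sham, and E2f1 at 0.624, 0.607 and 0.335 CPM against 0.381, 0.734 and 0.967 CPM. The lowest p of the liver replication genes, 0.167 before adjustment by edgeR, belonged to Mcm4, at 2.32, 4.81 and 4.28 CPM against 4.76, 5.76 and 5.26 CPM. Mcm4 was thus lowest in SAM 1, and its log2 fold change was -0.44 ± 0.29 (SE). Tyms was at 2.67, 2.99 and 3.08 CPM in SAM and 3.49, 3.51 and 3.33 CPM in Sham, so all SAM libraries were below, in 1 of 22 genes against a background of 5.80%. Aurka was at 2.23, 2.02 and 2.07 CPM against 1.40, 1.78 and 1.81 CPM, the only gene with all SAM libraries above, against 4.93%. Their log2 fold changes were -0.23 ± 0.22 (SE) and 0.35 ± 0.27, with adjusted p-values of 0.804 and 0.802.

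Of the other mitosis genes in liver, Tpx2 was at 1.60, 2.18 and 2.48 CPM in SAM and 1.59, 3.14 and 2.12 CPM in Sham, and Foxm1 at 1.96, 1.37 and 2.01 CPM against 1.21, 1.89 and 1.15 CPM. Birc5 was at 1.16, 0.506 and 1.74 CPM against 1.08, 1.10 and 0.786 CPM. Cenpa was at 0.624, 1.32 and 1 CPM against 0.444, 0.681 and 0.605 CPM, with a log2 fold change of 0.79 ± 0.40 (SE). Cdk1 was at 0.267, 0.708 and 0.669 CPM against 0.508, 0.629 and 0.0605 CPM, which is 1 to 14 counts in a library. SAM and Sham libraries overlapped in these 5 genes. Ccnb1, Plk1, Mybl2, Cenpf and Kif23 were too low in liver to be tested, with at most 14 counts in any library.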

How the data were processed

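The authors deposited 1 table of raw read counts per gene for 24 libraries. STAR 2.2.1 and the build rn6 are listed in the submitters' processing notes, with no role given. How reads were counted, with which strand setting and gene models, is not given in the sources used here. Each column was assigned by its tissue and animal number, because all column names begin with SAM, those of sham rats too. Tests used edgeR 4.0.16 in R 4.3.3 (quasi-likelihood, two-sided, filterByExpr, TMM), fitted per tissue, over thymus and spleen for the difference of effects, and over Sham thymus and spleen. P-values were adjusted by Benjamini-Hochberg over all genes tested, at 0.05, and DESeq2 1.42.0 was an alternative. Scores are mean log2 CPM with a prior count of 2. The design has 3 libraries a group, and depth was 12851169 to 20124738 counts per library, so low genes, mostly in liver and brain, carry wide intervals. The scripts were tested on simulated data.

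Other settings were RLE, upper quartile and totals-only scaling, no low-count filter, 1 fit over 24 libraries, each library left out and a replicate block. Values in every library are given for Mki67, Top2a, Cdk1, Ccnb1, Pcna and Mcm2 and for the 3 replication and 5 mitosis genes with the lowest p in thymus or spleen (in liver and brain for the same genes where tested, otherwise as a range), and up to 3 lowest-p genes of each other list; names outside this rule illustrate range or exceptions. The members and lists were chosen with earlier results of these data known.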

Additional observations from a re-analysis of the deposited data

Results flagged for a closer look

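Tyms had SAM libraries on opposite sides of Sham in different tissues. Its log2 fold change was 0.41 in spleen and 0.59 in brain, with every SAM library above every Sham library, and -0.23 in liver, with every SAM library below. Over all genes, separation in the same direction was seen in 4.74% in spleen, 11.4% in brain and 5.80% in liver. In thymus Tyms was at 0.01 and the groups overlapped. The spleen value was 0.14 without SAM 3. The difference between tissues was not tested, and none of the main values passed edgeR's test within its tissue.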

How the results depend on the processing

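With 3 libraries a group, 1 library can turn the small estimates. Over the fits that left out 1 library, spleen had 23 to 35 genes above 0, liver 8 to 15 genes above 0, a replication median of -0.24 to 0.07 and a mitosis median of -0.18 to 0.26, and brain 0 to 7 genes passing and a mitosis median of -0.04 to 0.33. The estimate changed sign in at least 1 of these fits for 2 of 36 genes in thymus, 13 of 36 in spleen (12 of them without SAM 3), 10 of 22 in liver and 12 of 32 in brain, and for 24 of 36 in the difference between thymus and spleen effects, where 14 to 35 genes were below 0. Among the genes given in every library that changed sign, log2 fold changes ran from -0.04 to 0.07 for Tyms in thymus and, in spleen, from -0.13 to 0.67 for Cdk1, -0.14 to 0.38 for Ccnb1, -0.06 to 0.15 for Pcna, -0.07 to 0.30 for Mcm5 and -0.08 to 0.46 for Birc5. In liver 18 of 36 genes were above 0 with no low-count filter and 19 of 36 in 1 fit over 24 libraries. The main liver fit had 10 of 22 above 0, so these counts differ in how many of the 36 were tested. The 2 alternative fits tested 18012 and 17623 genes in all, against 12130 in the main liver fit. Totals-only scaling moved the median of all liver genes to -0.12, and Mcm3 in Sham thymus over spleen to 0.08. DESeq2 called 1 of the 32 genes in brain, among 499 of all genes (3.50%). The cause of these changes was not tested.

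Animal numbers shared by thymus and spleen were not treated as pairs in the main fits. The correlations given next come from groups of 3 libraries and cannot decide whether the same number is the same rat. Deviations of same-numbered libraries correlated at -0.01 to 0.19 over all genes, and 3 of 6 correlated best with their own number. Over the 36 genes alone they correlated at 0.26, 0.25 and 0.36 for numbers 3, 14 and 17 and at -0.11, -0.11 and -0.10 for numbers 1, 5 and 15. With the replicate block 0 genes passed for the difference of effects, and 35 passed for Sham thymus over spleen, with medians of 1.86 for replication and 3.25 for mitosis genes.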
